A study of Mus musculus with 6 samples.

Results

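Nqo1 and 46 other genes of the glutathione, thioredoxin and NRF2 system were followed in primary mouse fibroblasts treated with CXCL3, a secreted CXC chemokine, and in controls. The 47 genes were taken by name from 51912 genes in a table of TPM, the share of a library's transcripts that come from a gene, corrected for its length. The list was drawn up around a higher level of Nqo1 with CXCL3 in this same comparison, to see whether other NRF2 targets went the same way. Its values between the groups are therefore a description, and no p-value is given for a member. A pass of Nqo1 in any fit below is likewise a description, since the list was built on its rise. One group was treated with CXCL3 for 48 h (3 libraries) and the other was the control at the same time (3 libraries), all from cells of mice aged 6 weeks. The labels give neither strain, organ nor dose. Nothing in them tells whether replicates came from different cultures or mice, so the spread between them may be technical.

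NRF2, encoded by Nfe2l2, is a transcription factor that KEAP1 binds in the cytoplasm and sends to degradation. When oxidants or electrophiles modify KEAP1, NRF2 persists, enters the nucleus, pairs with small MAF proteins and binds antioxidant response elements near its target genes. The targets make glutathione, reduce thioredoxin, detoxify quinones and supply NADPH. NRF2 is regulated mainly as a protein, so the level of its transcript need not follow its activity. Within the list, 18 genes are textbook NRF2 targets: Nqo1, Hmox1, Gclc, Gclm, Gsr, Srxn1, Txnrd1, Txn1, Prdx1, Gsta4, Gstm1, Gstp1, Osgin1, G6pdx, Pgd, Taldo1, Tkt and Me1. The other 29 belong to the same enzyme families or control the pathway.

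Control replicates 2 and 3 stood apart from the other 4 libraries. On the first principal component over 13139 genes (52.9% of the variance) they lay at 36.6 and 26.6, while the CXCL3 libraries lay between -18.7 and -9.39 and control 1 at -19.2. Across 13121 genes with a known length, which are not independent replicates, transcript length correlated with how far a library deviated from the 6-library mean (Spearman's rho of 0.20 to 0.40 in the CXCL3 libraries, 0.45 in control 1, and -0.50 and -0.48 in controls 2 and 3). Results that turn on these controls are therefore also given against control 1 alone and against controls 2 and 3 alone. The cultures carried transcripts of fibroblasts and of macrophages. Levels and changes of all members are those of whole cultures and are not assigned to either cell type. Of 9 fibroblast markers all but Lum passed the filter (1 TPM in at least 3 libraries). The 9 summed to between 3956 and 4300 TPM with CXCL3 and between 3614 and 5533 TPM in controls, most of it Fn1. Over the 8 that passed, 3 log2 fold changes were positive and 5 negative. Of the 8, 2 were lower without overlap (25%, against 9.31% of all genes) and none was higher. The 2 were Col3a1 (-1.05, which passed in limma) and Dcn (-0.15). All 12 macrophage markers passed, with sums of 15826 to 15928 TPM with CXCL3 and 16414 to 19476 TPM in controls, most of it Lyz2. The defining macrophage genes Cd68, Csf1r and Adgre1 overlapped between the groups, Adgre1 at 436 to 458 TPM with CXCL3 and at 363 to 507 TPM in controls. Over the 12 markers 4 log2 fold changes were positive and 8 negative. Of the 12, 6 were lower without overlap (50%, against 9.31% of all genes). Among them were C1qa (-0.78, which passed in limma), C1qb (-0.42), C1qc (-0.45) and Fcer1g (-0.45). Mrc1 (0.53) was the 1 marker higher without overlap (8.33%, against 7.92% of all genes). Of the neutrophil markers S100a8 was abundant, at 529 to 582 TPM with CXCL3 and 552 to 669 TPM in controls. Csf3r passed the filter too, at 2.87 to 5.0 TPM with CXCL3 and 2.3 to 3.13 TPM in controls. By contrast, S100a9, Ly6g and Cxcr2 stayed under 1 TPM in every library. Markers of epithelium and lymphocytes did not pass the filter, and 1 of 4 endothelial markers, Kdr, did.

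The antioxidant response element has the core letters TGACNNNGC, and these were searched on both strands of promoter windows of 300 bases, from 250 before to 50 after a gene's start (RefSeq, GRCm38.p6). Windows existed for 41 of the 47 genes, not always 1 each. A match was present for 11 of the 41 genes (26.8%), against 14.0% of all 27025 genes with a window. It was present for 7 of 14 textbook targets (Srxn1, Gclm, Prdx1, Pgd, Me1, Txnrd1 and G6pdx) and for 4 of 27 other members (Nfe2l2, Gstm5, Mgst1 and Sod1). For Srxn1 (position 29) and Pgd (position 4) the match began after the start. The Pgd match belonged to an alternative start inside the gene, and the window at its first start held none. A match is a run of letters and not a binding site. The stretches just before the start of Nqo1 and of 4 targets that carry the letters are shown because their transcripts are compared below. Each runs 5′ to 3′ on the gene's strand, and capitals mark the core letters, which here lie on the opposite strand and so read as the reverse complement.
Nqo1, chr8:107403206-107403455, minus strand: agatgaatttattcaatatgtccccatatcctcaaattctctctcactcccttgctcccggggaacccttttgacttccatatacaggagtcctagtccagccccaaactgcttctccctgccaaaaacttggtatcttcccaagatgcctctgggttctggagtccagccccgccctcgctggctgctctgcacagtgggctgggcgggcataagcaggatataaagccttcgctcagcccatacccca
Txnrd1, chr10:82859056-82859205, plus strand: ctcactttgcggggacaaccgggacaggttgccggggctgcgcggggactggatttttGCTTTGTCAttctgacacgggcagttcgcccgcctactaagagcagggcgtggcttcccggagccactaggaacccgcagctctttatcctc
Gclm, chr3:122245407-122245556, plus strand: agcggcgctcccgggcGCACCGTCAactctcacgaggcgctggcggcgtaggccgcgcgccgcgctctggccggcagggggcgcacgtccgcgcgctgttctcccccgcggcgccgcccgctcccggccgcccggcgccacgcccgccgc
Prdx1, chr4:116685449-116685598, plus strand: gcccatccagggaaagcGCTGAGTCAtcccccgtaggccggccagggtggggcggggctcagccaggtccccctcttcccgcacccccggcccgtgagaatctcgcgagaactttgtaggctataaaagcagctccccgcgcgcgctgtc
G6pdx, chrX:74428881-74429030, minus strand: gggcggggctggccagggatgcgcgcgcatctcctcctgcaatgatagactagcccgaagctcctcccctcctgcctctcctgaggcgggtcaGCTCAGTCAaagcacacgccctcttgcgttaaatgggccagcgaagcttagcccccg
The 250 bases before the start of Nqo1 hold no core match, which says only that these letters are absent from this window. In the other 4 the match began at position -92 (Txnrd1), -134 (Gclm), -133 (Prdx1) and -57 (G6pdx), counted back from the transcript start that defines the window. For Txnrd1 that is an alternative start inside the gene, which begins at 82833951, and the window at the first start (chr10:82833701-82834000) held no match.

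All 47 genes passed the filter and were expressed in every library. The most abundant were Prdx1, with a mean of 2921 TPM over the 6 libraries, Hmox1 (1756 TPM), Prdx6 (956 TPM), Gpx4 (782 TPM), and Prdx5 and Gpx1 (760 TPM each). Osgin1 (6.56 TPM), Gstt1 (5.89 TPM) and Txnrd2 (7.83 TPM) were the lowest. The libraries of the CXCL3 group lay closer together than those of the control group: the median SD of a member's log2 value was 0.04 with CXCL3 and 0.14 in controls, and the SD was larger in controls for 44 of 47 members, as it was for 80.3% of all genes tested.

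**Figure D1:**
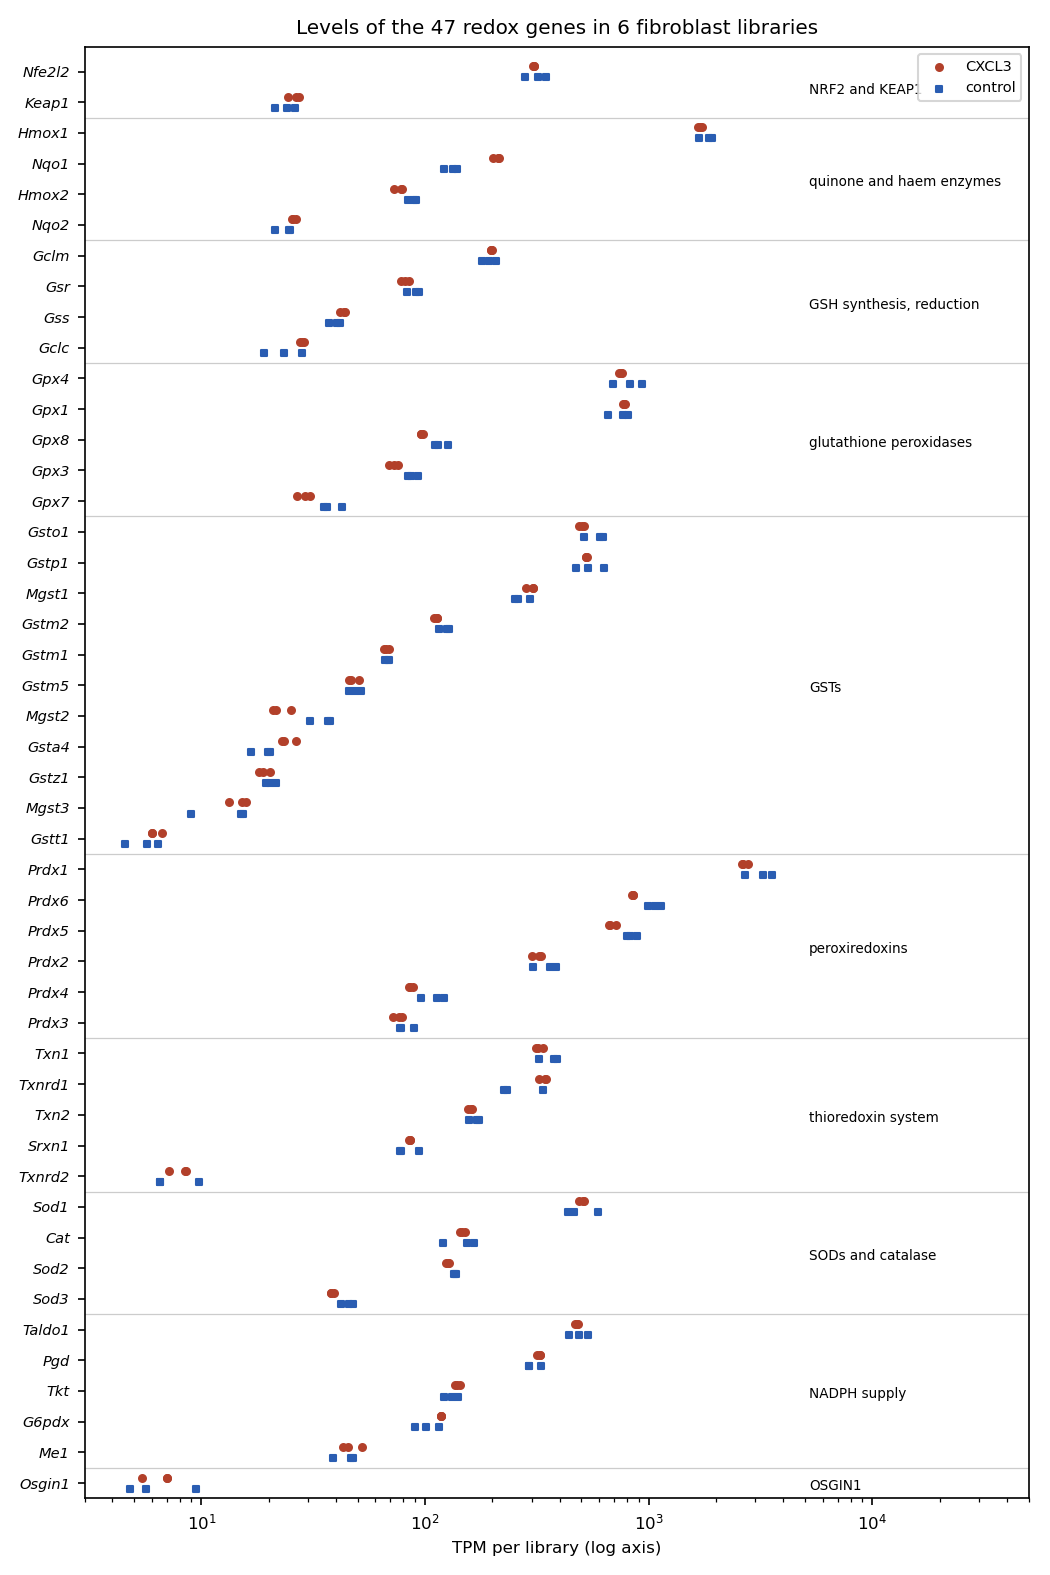
TPM of each of the 47 genes in each library on a log axis, grouped by role, with CXCL3 libraries as circles above and control libraries as squares below. Levels run from Gstt1 and Osgin1 near the left edge to Prdx1 at the right, and the points of most genes overlap between the groups.

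Between the groups, Nqo1 was 1.6-fold higher with CXCL3 and was the 1 member of 47 that passed an adjusted p of 0.05 (limma on log2(TPM + 1), Benjamini-Hochberg over 13139 genes). The share of all genes that passed was 0.160%, with 0.0304% higher and 0.129% lower. None of the other 46 members passed in limma, while 12 of them had an unadjusted p under 0.05 (26.1%, against 11.6% of all genes). Since the list was built on this comparison, nothing is read from the pass of Nqo1 or from these shares. The members ran from -0.61 (Mgst2) to 0.67 (Nqo1) on the log2 scale, 21 positive and 26 negative, with a median of -0.03, where the median of all genes was 0.07 and 62.3% were positive. For 40 of the 47 the change was smaller than 0.3 in size.

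Among the 17 textbook targets other than Nqo1, 10 had a positive and 7 a negative fold change, with a median of 0.04 and a range from -0.23 (Prdx1) to 0.38 (Txnrd1). The groups did not overlap for 2 of these 17, Gsta4 and G6pdx, both higher with CXCL3. Of the 29 members that are not textbook targets, 10 had a positive and 19 a negative fold change (median -0.10). Over all 47, the groups did not overlap for 5 members that were higher (Nqo1, Nqo2, Gss, Gsta4 and G6pdx) and 12 that were lower with CXCL3, against 7.92% and 9.31% of all genes. The difference between the change of Nqo1 and that of any other member was not tested.

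**Figure D2:**
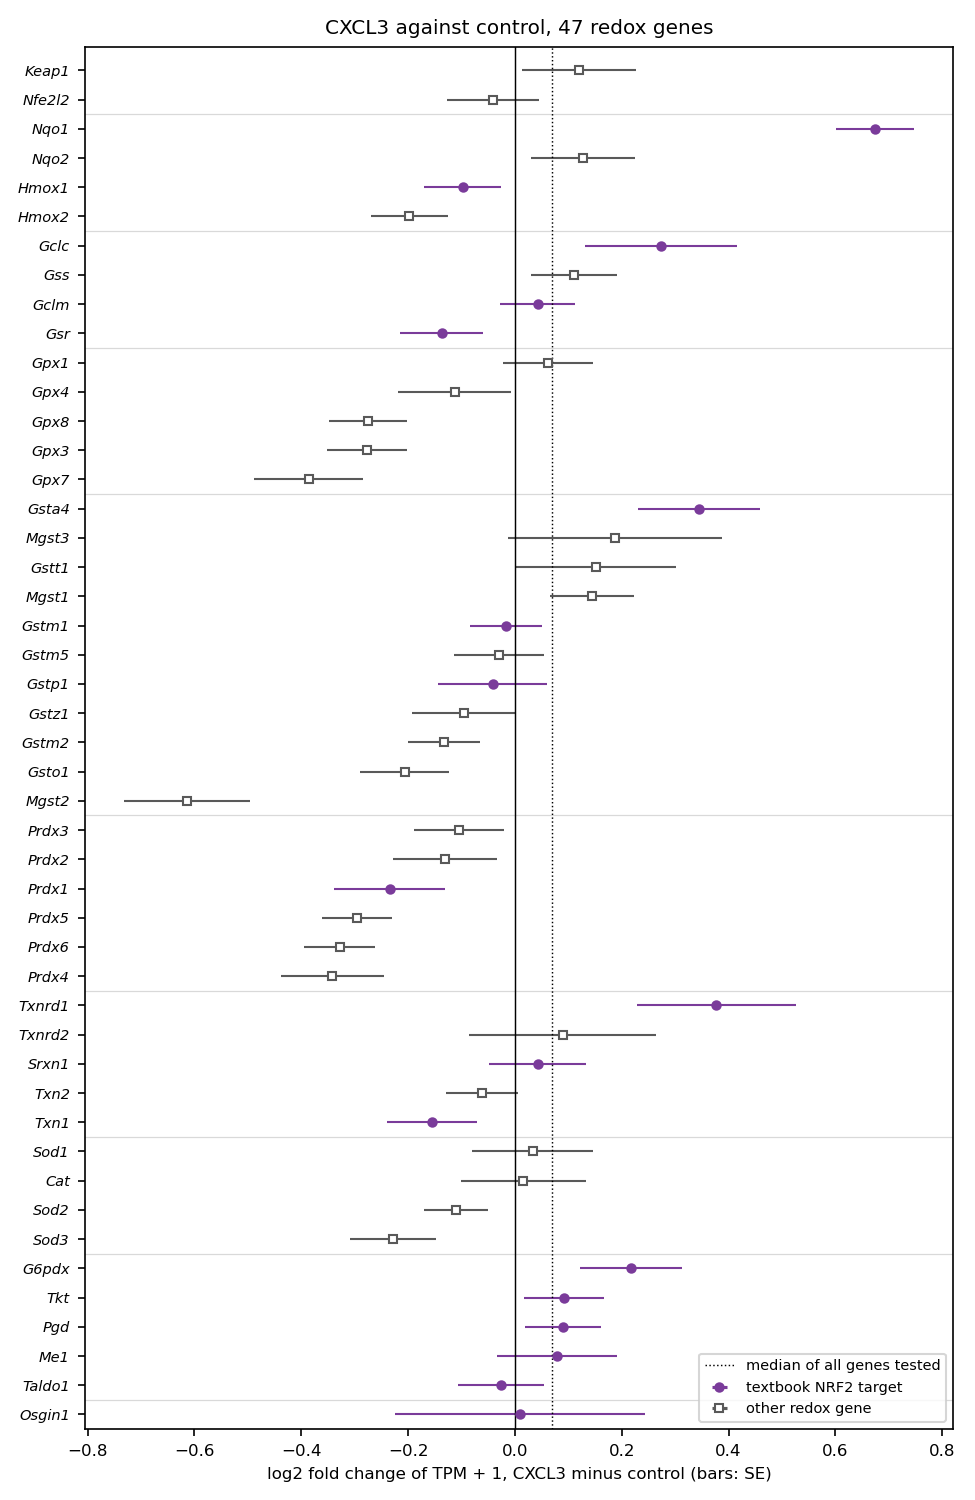
Log2 fold change of each gene, CXCL3 minus control, with its standard error, grouped by role and sorted within each role. Filled circles are textbook NRF2 targets, open squares other redox genes, and the dotted line is the median of all genes tested (0.07). Nqo1 (0.67) lies to the right of all other members and Mgst2 (-0.61) to the left of them.

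The transcripts of the switch itself lay close to their controls. Nfe2l2, the gene of NRF2, was at 303, 308 and 308 TPM with CXCL3 and at 348, 280 and 321 TPM in controls 1, 2 and 3. Its log2 fold change was -0.04 ± 0.09 SE, with -0.18 against control 1 alone and 0.03 against controls 2 and 3, and the groups overlapped. Keap1, the gene of its inhibitor, was at 26.6, 27.3 and 24.3 TPM with CXCL3 and at 26.3, 24.1 and 21.4 TPM in controls (0.12 ± 0.11). For Keap1 the highest control lay inside the CXCL3 range, and the value was -0.02 against control 1 alone and 0.19 against controls 2 and 3.

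Nqo1 encodes a cytosolic quinone reductase that uses NAD(P)H and is a classical readout of NRF2. Its level was 212, 202 and 213 TPM with CXCL3 and 138, 121 and 134 TPM in controls 1, 2 and 3 (209.2 ± 6.27 and 130.9 ± 8.92 TPM, mean ± SD, n = 3 each). All 3 CXCL3 libraries lay above all 3 controls, with control 1 beside control 3. The log2 fold change was 0.67 ± 0.07 SE, and it was 0.59 against control 1 alone and 0.71 against controls 2 and 3. It stayed between 0.62 and 0.71 with any 1 library left out, but the call was lost without control 3 or without any of the CXCL3 libraries, and also under median-of-ratios scaling, eBayes without trend, and no filter. Nqo1 (ENSMUSG00000003849) lies on chromosome 8 from 107388225 to 107403206 on the minus strand of GRCm38.

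Its paralog Nqo2, whose product uses dihydronicotinamide riboside in place of NAD(P)H, lay at 25.4 to 26.6 TPM with CXCL3 and at 21.3 to 24.9 TPM in controls. It overlaps Serpinb6a (mean 542 TPM) on the opposite strand, and the counting is not stated to use strand. Hmox1, which encodes the inducible haem oxygenase and responds to haem as well as to NRF2, was at 1737, 1694 and 1654 TPM with CXCL3 and at 1855, 1672 and 1924 TPM in controls. Control 2 lay inside the CXCL3 range, and the log2 fold change was -0.10 ± 0.07, with -0.13 against control 1 alone and -0.08 against controls 2 and 3. Haem oxygenase is abundant in macrophages. Their markers summed to a lower level with CXCL3, mostly through Lyz2. Single markers went both ways (4 positive and 8 negative), with 6 lower and 1 higher without overlap. The part of macrophages in Hmox1 was not tested. In whole cultures, fewer cells of a type and less RNA per cell cannot be told apart. Hmox2, of the constitutive enzyme, lay at 72.7 to 78.7 TPM with CXCL3 and at 83.6 to 90.7 TPM in controls.

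Glutathione is made by glutamate-cysteine ligase, whose catalytic and modifier subunits are encoded by Gclc and Gclm, followed by the synthetase of Gss. Gclc was at 28.9, 27.7 and 28.3 TPM with CXCL3 and at 28.3, 19.0 and 23.3 TPM in controls 1, 2 and 3. Control 1 matched the CXCL3 libraries, while controls 2 and 3 lay below them. The log2 fold change was 0.27 ± 0.14, and it was 0.41 against controls 2 and 3 but under 0.01 against control 1. Gclm was at 200, 197 and 198 TPM with CXCL3 and at 192, 179 and 207 TPM in controls (0.04 ± 0.07), with control 3 the highest of all 6 libraries. The modifier subunit was more abundant per length than the catalytic subunit in every library. Gss lay at 41.7 to 43.8 TPM with CXCL3 and at 37.2 to 41.7 TPM in controls. Gsr, of the reductase that returns oxidised glutathione to its reduced form, was at 81.3, 84.4 and 77.8 TPM with CXCL3 and 91.1, 82.9 and 94.3 TPM in controls (-0.14 ± 0.08, with -0.17 against control 1 alone and -0.12 against controls 2 and 3).

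The 5 glutathione peroxidases, which reduce peroxides at the expense of glutathione or of other thiols, included 1 positive and 4 negative log2 fold changes with a median of -0.28. Gpx1, the major cytosolic enzyme, and Gpx4, which reduces lipid hydroperoxides and protects from ferroptosis, overlapped between the groups. Gpx1 was 0.23 against control 1 alone and -0.02 against controls 2 and 3, and it turned negative with median-of-ratios scaling and with library weights. Gpx7, an enzyme of the endoplasmic reticulum that feeds oxidative protein folding, was at 30.4, 26.8 and 29.2 TPM with CXCL3 and at 36.5, 42.4 and 35.2 TPM in controls. The groups did not overlap, and the log2 fold change was -0.39 ± 0.10. It was -0.33 against control 1 alone and -0.41 against controls 2 and 3. Gpx8, of the same compartment, and Gpx3, a secreted enzyme, are named after their values were seen. Gpx8 lay at 95.5 to 98.1 TPM with CXCL3 and 111 to 126 TPM in controls, and Gpx3 at 69.1 to 75.7 TPM with CXCL3 and 84.2 to 92.9 TPM in controls.

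Glutathione S-transferases couple glutathione to electrophiles. Among the 11 members, 4 had a positive and 7 a negative fold change (median -0.03). Gsta4, whose product is active on the lipid aldehyde 4-hydroxynonenal, was at 23.4, 26.4 and 23.0 TPM with CXCL3 and at 16.7, 20.3 and 19.9 TPM in controls. Each CXCL3 library lay above each control, and the log2 fold change was 0.34 ± 0.11, with 0.51 against control 1 alone and 0.26 against controls 2 and 3. Gstm1, at 65.3 to 68.8 TPM with CXCL3 and 66.4 to 69.0 TPM in controls, gave -0.02 ± 0.07. Gstp1 was at 527, 529 and 525 TPM with CXCL3 and at 472, 629 and 536 TPM in controls, so that the CXCL3 libraries lay within the control range. The Gstm genes and Gstp1 have close paralogs, and the split of reads between them is uncertain. Mgst2, of a membrane-bound transferase that can also make leukotriene C4, was at 25.1, 21.5 and 20.8 TPM with CXCL3 and at 30.6, 37.5 and 36.8 TPM in controls 1, 2 and 3. The groups did not overlap, and Mgst2 was 1.53-fold lower (log2 fold change -0.61 ± 0.12 SE) without passing. The value was -0.43 against control 1 alone and -0.70 against controls 2 and 3. Mgst3 depended on control 1, which lay at 9.01 TPM where the other 5 libraries lay at 13.2 to 15.8 TPM, and gave 0.65 against control 1 alone and -0.04 against controls 2 and 3.

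All 6 peroxiredoxins, thiol peroxidases that thioredoxin or glutathione returns to the reduced form, had negative fold changes, from -0.34 (Prdx4) to -0.10 (Prdx3). Prdx2 was positive against control 1 alone. Prdx6, a peroxidase with a phospholipase activity, was at 847, 849 and 845 TPM with CXCL3 and at 997, 1065 and 1134 TPM in controls. The CXCL3 libraries lay within 4.05 TPM of each other and below every control. The log2 fold change was -0.33 ± 0.07 SE, with -0.23 against control 1 alone and -0.38 against controls 2 and 3. Prdx4, the form of the endoplasmic reticulum, was at 85.1, 88.3 and 85.4 TPM with CXCL3 and at 95.7, 121 and 114 TPM in controls 1, 2 and 3. Again no libraries overlapped, and the log2 fold change was -0.34 ± 0.10, with -0.15 against control 1 alone. Prdx5, named after its values were seen, also did not overlap, at 663 to 711 TPM with CXCL3 and 799 to 887 TPM in controls. Prdx1, the cytosolic form and the textbook NRF2 target of the family, was at 2607, 2637 and 2783 TPM with CXCL3 and at 2702, 3242 and 3555 TPM in controls 1, 2 and 3. Control 1 lay among the CXCL3 libraries, and the log2 fold change of -0.23 ± 0.10 became -0.01 against control 1 alone and -0.34 against controls 2 and 3.

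Thioredoxin reductase 1 passes electrons from NADPH to thioredoxin, and sulfiredoxin repairs overoxidised peroxiredoxins. Txnrd1 was at 344, 348 and 322 TPM with CXCL3 and at 337, 231 and 226 TPM in controls 1, 2 and 3. It had the second highest fold change of the list (0.38 ± 0.15), yet control 1 lay inside the CXCL3 range. The log2 fold change was under 0.01 against control 1 alone and 0.56 against controls 2 and 3. Srxn1 was at 85.2, 84.7 and 85.7 TPM with CXCL3 and at 93.8, 76.9 and 78.4 TPM in controls (0.04 ± 0.09). Its value was -0.14 against control 1 alone and 0.13 against controls 2 and 3. The cytosolic thioredoxin gene Txn1 was at 320, 314 and 337 TPM with CXCL3 and at 321, 387 and 376 TPM in controls (-0.16 ± 0.08), with control 1 again beside the CXCL3 libraries (0.01 against control 1 alone and -0.24 against controls 2 and 3). The mitochondrial pair Txn2 and Txnrd2 overlapped between the groups.

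**Figure D3:**
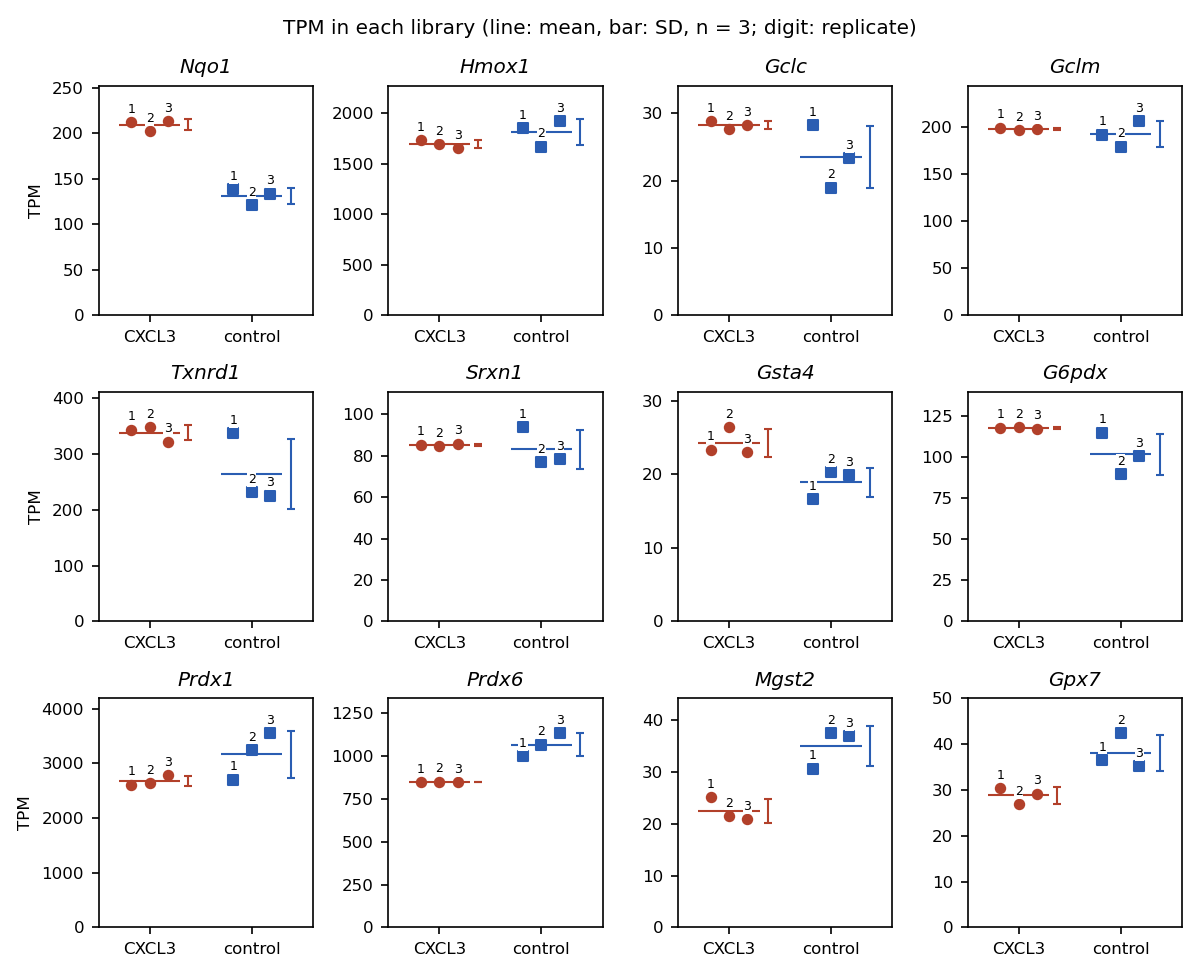
TPM of 12 genes in each library from an axis that starts at 0, with CXCL3 on the left and control on the right of each panel, the digit giving the replicate, the line the mean and the bar the SD of 3 libraries. Nqo1 separates the groups with all 3 controls together. For Txnrd1, Gclc and Prdx1, control 1 lies level with the CXCL3 libraries and controls 2 and 3 lie away from them.

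Superoxide dismutases convert superoxide to hydrogen peroxide, which catalase breaks down. Sod1, at 489 to 515 TPM with CXCL3 and 437 to 593 TPM in controls, and Cat, at 144 to 151 TPM with CXCL3 and 120 to 165 TPM in controls, overlapped between the groups. Mitochondrial Sod2, which NF-kappaB induces, lay at 124 to 128 TPM with CXCL3 and at 135 to 138 TPM in controls. The secreted form Sod3 lay at 37.8 to 39.3 TPM with CXCL3 and at 42.3 to 47.7 TPM in controls. Neither overlapped, with log2 fold changes of -0.11 for Sod2 and -0.23 for Sod3.

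NADPH, which the reductases above consume, comes from the pentose phosphate pathway and malic enzyme. G6pdx, of the first enzyme of that pathway, was at 118, 118 and 117 TPM with CXCL3 and at 115, 89.7 and 101 TPM in controls 1, 2 and 3. The groups did not overlap, but control 1 lay just below the CXCL3 libraries, and the log2 fold change of 0.22 ± 0.10 was 0.04 against control 1 alone and 0.31 against controls 2 and 3. Pgd, of the dehydrogenase that makes NADPH later in the pathway, was at 325, 327 and 317 TPM with CXCL3 and 330, 290 and 291 TPM in controls (0.09 ± 0.07). The genes of the sugar-rearranging enzymes, Tkt (0.09 ± 0.07) and Taldo1 (-0.03 ± 0.08), and Me1, of cytosolic malic enzyme (0.08 ± 0.11), overlapped between the groups. So did Osgin1, which encodes an oxidative stress-induced growth inhibitor, at 7.0, 5.41 and 7.04 TPM with CXCL3 and 9.48, 4.78 and 5.67 TPM in controls (0.01 ± 0.23). Osgin1 gave -0.49 against control 1 alone and 0.26 against controls 2 and 3.

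Which control was used decided the sign or size of many members. Against controls 2 and 3 alone, 19 of 47 members passed an adjusted p of 0.05 in limma (40.4%, against 32.4% of all genes), 5 higher (25.2% of all genes) and 14 lower with CXCL3 (7.17% of all genes). The 5 were Nqo1, on which the list was built, Txnrd1, Gclc, G6pdx and Pgd, all textbook targets. The 14 included the textbook targets Prdx1 and Txn1. Of the 18 textbook targets, 5 passed higher (25.2% of all genes) and 2 lower (7.17% of all genes). In either direction 38.9% of the 18 passed, against 32.4% of all genes. Nothing is read from these counts or shares. Against control 1 alone 2 members passed, Nqo1 higher and Prdx6 lower, against 0.639% of all genes. In that fit the lone control is assumed to vary like the CXCL3 libraries. Across genes longer transcripts tended to have higher log2 fold changes (Spearman's rho of 0.23 over the 47 members and 0.45 over 13121 genes with a length). The part of transcript length in the members' values was not tested.

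**Figure D4:**
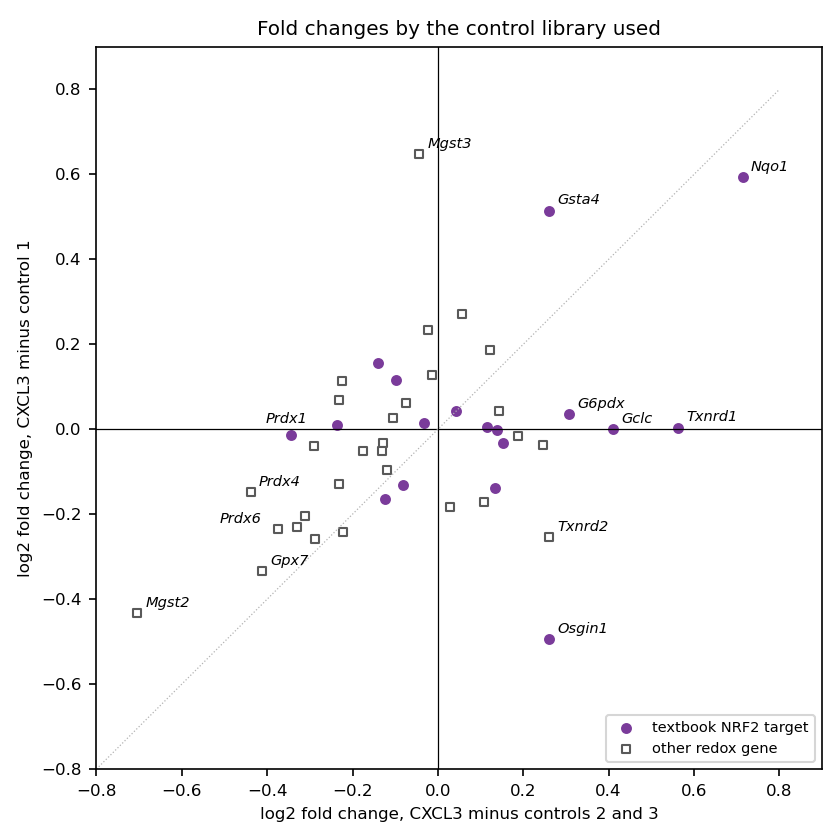
Each point is a gene, with its log2 fold change against controls 2 and 3 on the horizontal axis and against control 1 on the vertical axis (filled circles are textbook NRF2 targets, open squares the others, and the dotted line marks equal values). Nqo1 (0.71 and 0.59) and Mgst2 (-0.70 and -0.43) lie away from 0 on both axes, whereas Txnrd1, Gclc and Prdx1 lie on the horizontal axis. Both axes share the 3 CXCL3 libraries.

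Other genes of the pathway were followed from a list of 34, of which 29 passed the filter. None passed an adjusted p of 0.05 in limma, 4 had an unadjusted p under 0.05 (13.8%, against 11.6% of all genes), and fold changes were positive for 14 and negative for 15 (median -0.02). Of 18 further textbook targets measured, 8 were positive and 10 negative. Slc7a11, of the cystine importer that feeds glutathione synthesis, was at 44.8, 44.5 and 40.8 TPM with CXCL3 and at 45.2, 27.3 and 29.9 TPM in controls 1, 2 and 3. The exporter gene Abcc1 was at 89.1, 86.3 and 78.0 TPM with CXCL3 and at 80.9, 44.3 and 52.3 TPM in controls. Both, chosen after their values were seen, had control 1 at the level of the CXCL3 libraries, as Txnrd1 and Gclc had. Against control 1 alone Slc7a11 gave -0.06 and Abcc1 0.06, and against controls 2 and 3 they gave 0.58 and 0.80. Gsta3, of another alpha-class transferase, was at 80.7, 84.7 and 86.1 TPM with CXCL3 and at 101, 118 and 118 TPM in controls, without overlap (-0.42 ± 0.08). Gsta3 gave -0.27 against control 1 alone and -0.49 against controls 2 and 3. The ferritin light chain gene Ftl1 and the autophagy receptor gene Sqstm1 were also lower without overlap. Ugdh, which makes UDP-glucuronate, was higher without overlap. Each of these 3 changed by less than 0.3 on the log2 scale. Against control 1 alone Ftl1 gave -0.03, Sqstm1 -0.18 and Ugdh 0.11. Against controls 2 and 3 they gave -0.33, -0.19 and 0.33. Among partners, repressors and relatives of NRF2 (Mafg, Maff, Mafk, Bach1 and Nfe2l1) 4 of 5 were positive against all controls and 1 of 5 against control 1 alone. Maff was higher without overlap (0.10). Of 6 other glutathione and thioredoxin genes, 2 were positive and 4 negative, with Slc3a2 lower without overlap (-0.06).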

How the data were processed

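RNA sequencing of 3 CXCL3 and 3 control libraries was analysed, with groups from the treatment label. The authors deposited TPM per gene, 1 column for each library. The submitters' processing notes name fastp, HISAT, RSEM and GRCm38.p5, without versions. Annotation, filters and strandedness: not given in the sources used here. TPM keeps no depth, so it is unknown and no counting interval is given; columns sum to between 984281 and 986705 TPM, and 19493 to 20270 genes were above 0. GENCODE M21 (GRCm38) gave symbols for 51719 of 51912 genes. Genes with at least 1 TPM in at least 3 libraries were kept (13139). Differences were fitted on log2(TPM + 1), which understates the change of low genes, with limma 3.58.1 in R 4.3.3 (eBayes with trend, two-sided, Benjamini-Hochberg over all genes kept, threshold 0.05). The script was tested on simulated data. The members and all lists were chosen with earlier results of these data known. Library values were given for Nqo1, the textbook targets, Nfe2l2, Keap1 and members without overlap and an absolute log2 fold change of at least 0.3; further genes were named after their values were seen. The fit was repeated under 17 alternatives.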

Additional observations from a re-analysis of the deposited data

How the results depend on the processing

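The fit called 21 genes, 1 of them a member (Nqo1). The counts of genes called and of members called were 0 and 0 with no filter (1928 genes at an unadjusted p under 0.05), 5 and 0 with median-of-ratios scaling, 1 and 0 with eBayes without trend, 1446 and 11 with library weights, and 84 and 2 without controls 2 and 3. The count of genes was 56 with the length trend removed and 12 with the replicate block, and Nqo1 passed in both. Same-numbered libraries had correlations of their deviations of 0.12, -0.01 and 0.08, and 3 of 6 libraries correlated best with their own number, so the numbers were not taken as pairs. With 1 library left out, genes called ran between 0 and 4254 and members called between 0 and 19, the highest without control 1. Counts were 0 without control 3, CXCL3 1 or CXCL3 2 (875, 765 and 799 genes at an unadjusted p under 0.05). Members without overlap numbered 17, 34 without controls 2 and 3, and 17 to 33 with 1 library left out; fewer libraries overlap less. The members' median of -0.03 was -0.11 with median-of-ratios scaling, which took the median of all genes to 0, and -0.075 to -0.016 with 1 library left out. Positive members numbered 21, 15 with median-of-ratios scaling and 18 to 21 with 1 library left out.

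Of 25 genes followed singly, 13 kept their sign in all 17 alternatives: Nqo1 (0.59 to 0.73, passing in 10 of the 17), Hmox1, Txnrd1, Gclc, Gsr, Gsta3, Gsta4, G6pdx, Prdx1, Prdx4, Prdx6, Gpx7 and Mgst2. A kept sign could rest on a small value. Without controls 2 and 3, Gclc was at 0.001, Txnrd1 at 0.004, Prdx1 at -0.015 and G6pdx at 0.036. The sign turned for Osgin1 with a pseudocount of 5 (-0.002). With median-of-ratios scaling it turned for Gclm (-0.036), Srxn1 (-0.035) and Osgin1 (-0.055), and with quantile normalization for Osgin1 (-0.11), Taldo1 (0.006) and Nfe2l2 (0.012). With the length trend removed it turned for Gclm (-0.153), Gstm1 (0.063), Gstp1 (0.072), Pgd (-0.007) and Taldo1 (0.046). Without controls 2 and 3 it turned for Srxn1 (-0.137), Txn1 (0.009), Gstm1 (0.014), Gstp1 (0.157), Osgin1 (-0.494), Pgd (-0.033), Taldo1 (0.116), Tkt (-0.003) and Keap1 (-0.016). With 1 library left out it turned for Gclm (-0.008 to 0.094), Srxn1 (-0.009 to 0.133), Gstm1 (-0.035 to 0.002), Gstp1 (-0.141 to 0.066), Osgin1 (-0.168 to 0.261), Taldo1 (-0.097 to 0.043), Me1 (-0.011 to 0.136) and Nfe2l2 (-0.125 to 0.029). The cause was not tested.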

Other observations

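Members whose products work in the endoplasmic reticulum lumen or outside the cell were grouped after their values had been seen, so the group is a description. They are Gpx7, Gpx8 and Prdx4, thiol peroxidases of the endoplasmic reticulum, and the secreted enzymes Gpx3 and Sod3. All 5 were lower with CXCL3 without overlap, with log2 fold changes from -0.39 (Gpx7) to -0.23 (Sod3). Of all genes tested 9.31% were lower without overlap, and of the 47 members 25.5%, so the count follows from the choice of the 5. Against control 1 alone they stayed negative, from -0.33 (Gpx7) to -0.15 (Prdx4). Col3a1, of type III collagen, a cargo of the same compartment, was lower without overlap. Its levels were 194, 189 and 204 TPM with CXCL3 and 449, 343 and 430 TPM in controls. The log2 fold change of Col3a1 was -1.05, which passed in limma, with -1.20 against control 1 alone and -0.97 against controls 2 and 3. Dcn, another secreted matrix gene, was lower without overlap too (-0.15), with -0.17 against control 1 alone and -0.14 against controls 2 and 3. By contrast, Col1a1, Col1a2 and Fn1 moved with the control used. Col1a1 (-0.22) and Col1a2 (-0.24) overlapped between the groups, and gave -0.69 and -0.64 against control 1 alone but 0.02 and -0.04 against controls 2 and 3. Fn1 (0.12) overlapped too, with -0.23 against control 1 alone and 0.30 against controls 2 and 3. Among the mitochondrial members, Prdx3, Txn2 and Txnrd2 overlapped between the groups, while Sod2 and Prdx5, of which a part is mitochondrial, did not.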
